A study of Mus musculus with 8 samples.

Results

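The Schlafen genes are a family of mouse genes named for their link to cell quiescence, and 7 of them were followed here through the response of peritoneal macrophages to lipopolysaccharide and nicotine. The members were the rows of the deposited expression table listed under the symbols Slfn1, Slfn2, Slfn3, Slfn4, Slfn5, Slfn8 and Slfn9, which are 7 of the 24339 genes in it. RNA was sequenced from cultured peritoneal macrophages of C57BL/6 mice. The cells came from α7nAChR-/- mice, in which Chrna7, the gene of the α7 nicotinic receptor for acetylcholine, is disrupted, or from wild-type mice. They were given 10 µM nicotine or vehicle for 15 min and then 100 ng/ml lipopolysaccharide (LPS) or vehicle for 4 h. That makes 8 groups of 1 library each: α7nAChR-/- cells with nicotine and LPS, with LPS, with nicotine or with vehicle, and wild-type cells with the same 4 treatments. The labels give no age, no sex, no details of the knockout allele and no number of mice behind a library. Nor is it stated whether all cells of 1 genotype were harvested together, so that a genotype and its cell preparation cannot be told apart. With 1 library a group, a treatment effect was estimated over both genotypes and its error is how far the effect differed between them, so p-values measure the spread between these libraries and not between animals.

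Schlafen proteins share a core domain that in several members cleaves or binds transfer RNA, and the mouse genes are sorted by length into short (group I), intermediate (group II) and long (group III) forms. The long forms carry a helicase-like region at the carboxyl end that the short ones lack. Many Schlafen genes are induced by type I interferon. In macrophages, LPS binds TLR4, which signals through TRIF and IRF3 to make interferon-β, and the secreted interferon switches on genes whose promoters hold interferon-stimulated response elements. Nicotine is an agonist of α7nAChR, a receptor known for a cholinergic route that limits cytokine release from macrophages.

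The summed values of the libraries ran from 413052 to 854016 FPKM (sequenced fragments per length of transcript and per size of library), and read depth is not known. Chrna7 was listed at 0 in all 8 libraries, so the genotype labels could not be checked on the targeted gene. The glycolytic gene Gapdh stood at only 1.34 to 8.90 FPKM, so low values need not reflect low expression. All 10 macrophage markers, among them Adgre1 and Csf1r, reached at least 1 FPKM in some library. Gata6, the factor of resident peritoneal macrophages, stood at 0.814 to 4.84 FPKM in α7nAChR-/- and 2.30 to 15.7 FPKM in wild-type cells, and was lower in the nicotine library of each matched pair. Timd4, of the same list, differed the other way between genotypes, at 78.3 to 222 FPKM in α7nAChR-/- and 20.3 to 108 in wild-type cells. With nicotine alone Timd4 was higher than with vehicle in wild-type cells (34.5 against 20.3 FPKM), and it was lower with nicotine in the other pairs. The summed B cell markers stood at 161 to 352 FPKM (5 of 5 listed genes at 1 FPKM or more) and the summed mast cell markers at 157 to 751 FPKM (6 of 6). The summed T cell markers stood at 9.84 to 22.5 FPKM (6 of 7), and NK cell markers summed to at most 2.43 FPKM. The RNA therefore held transcripts of other peritoneal cells. In such bulk samples, fewer cells of a type and less RNA per cell cannot be told apart.

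The 7 genes lie side by side on chromosome 11 of GRCm38 within 263806 bases, from 82951349 to 83215154. In GENCODE annotation the coding regions of the short Slfn1 and Slfn2 hold 337 and 378 codons, and those of the intermediate Slfn3 and Slfn4 hold 640 and 602. The long Slfn5 has 884 codons, and Slfn8 and Slfn9 have 910 each. Slfn8 and Slfn9 lie on the minus strand and the other 5 on the plus strand. The paralogs are alike in places: 16.0% of the 50-base stretches of Slfn3 transcripts, 14.6% of those of Slfn8, 11.9% of those of Slfn9 and 11.3% of those of Slfn4 also occur in another gene, against 4.27% for Slfn2 and 0.606% for Slfn1. Slfn8 shared most with Slfn10-ps (10.1%) and with Slfn9 (9.30%), and Slfn3 shared most with Slfn4 (7.39%). How reads were divided between such copies is not given, so the levels of these paralogs are uncertain to that extent. Slfn5os, an antisense gene, overlaps Slfn5 over 9333 of its 13502 bases, and the kit did not mark strand, so reads of both cannot be told apart. Slfn5os itself was listed at 0 throughout.

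The 250 bases before each member's RefSeq start (GRCm38.p6, all 7 genes matched) were searched on both strands for the letters of 6 motifs of factors that LPS and interferon bring to promoters. The letters GAAA and GAAA with 2 bases between, as in an interferon-stimulated response element (ISRE), were found before Slfn5, Slfn8 and Slfn9, the 3 long members. They occur in 2.98% of 32851 promoters of the same length. The letters CAGGAAGT, bound by ETS factors such as PU.1, were found before Slfn1, Slfn2, Slfn3 and Slfn4, the short and intermediate members, and in 2.69% of all promoters. In Slfn2 they overlap the letters GGAA and GAAA with 2 bases between, as in an ETS and IRF composite element (2.30% of promoters), and Slfn4 alone held the letters TGANTCA of an AP-1 site (6.75%). The letters TTCNNNGAA of a GAS element (7.02%) and those of an NF-kB site, GGGA and TTCC with 2 bases between (1.21%), were in none of the 7 windows. Only these exact letters were searched for. Outside that pattern, the Slfn2 stretch printed below holds GGGA and TTCC with a single base between. A match describes letters only and says nothing about binding. The stretch of 90 bases that holds the matches is printed for each member because the long members and the others divide by motif; capitals mark the matched letters, read on the strand of the gene.
Slfn5 (chr11:82951892-82951981, plus strand, inside the RefSeq gene, whose first start lies 753 bases before the start used): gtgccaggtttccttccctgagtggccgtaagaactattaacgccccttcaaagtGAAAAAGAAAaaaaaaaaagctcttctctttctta
Slfn8 (chr11:83020811-83020900, minus strand): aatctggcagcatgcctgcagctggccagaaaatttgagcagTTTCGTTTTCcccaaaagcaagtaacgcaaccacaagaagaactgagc
Slfn9 (chr11:82991831-82991920, minus strand): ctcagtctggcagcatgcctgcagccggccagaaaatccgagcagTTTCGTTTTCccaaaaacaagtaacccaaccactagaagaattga
Slfn1 (chr11:83116730-83116819, plus strand): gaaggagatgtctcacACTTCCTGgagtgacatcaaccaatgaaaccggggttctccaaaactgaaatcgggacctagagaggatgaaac
Slfn2 (chr11:83065022-83065111, plus strand): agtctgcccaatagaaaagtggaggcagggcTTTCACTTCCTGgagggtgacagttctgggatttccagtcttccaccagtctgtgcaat
Slfn3 (chr11:83191240-83191329, plus strand): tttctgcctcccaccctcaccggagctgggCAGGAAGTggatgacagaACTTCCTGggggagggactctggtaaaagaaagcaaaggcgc
Slfn4 (chr11:83175082-83175171, plus strand, ending 15 bases before the start used): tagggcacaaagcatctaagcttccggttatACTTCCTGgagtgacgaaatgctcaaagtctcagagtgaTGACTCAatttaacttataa
The windows of Slfn8 and Slfn9 read alike around the same element, whose first base lies 48 and 45 bases before the start. The element of Slfn5 lies 155 bases before the start used.

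**Figure D1:**
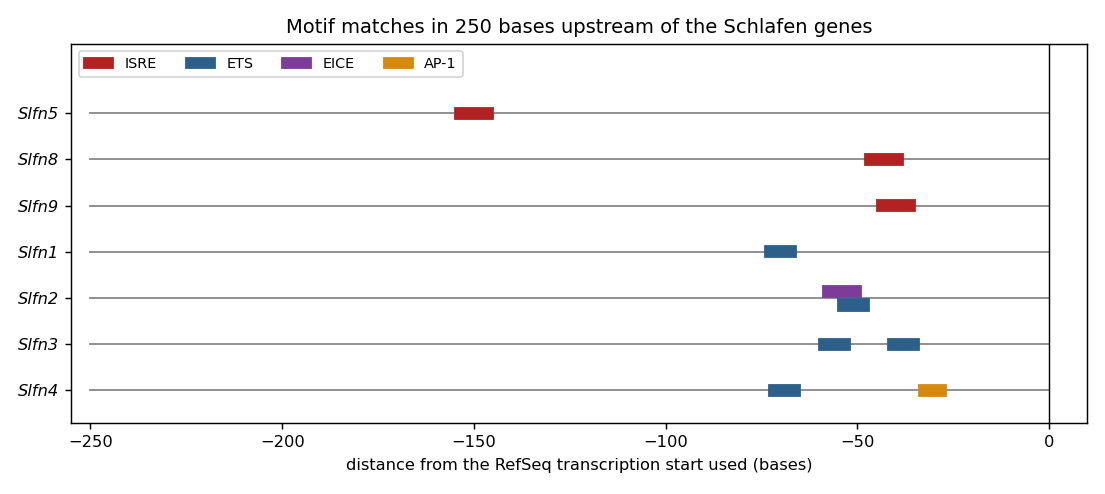
Each line is the 250 bases before the RefSeq start of 1 member, with the distance from that start in bases on the horizontal axis and boxes at the letters of 4 motifs (EICE is the ETS and IRF composite element), found on either strand. The 3 long members (Slfn5, Slfn8, Slfn9) hold an ISRE and the other 4 an ETS site. The exact GAS and NF-kB letters searched for, not drawn, were in none.

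Listed levels differed widely within the family. FPKM is scaled by transcript length, but the low Gapdh values and the unknown division of reads between paralogs limit comparison between genes. Slfn2, a short member whose loss in mice breaks the quiescence of T cells and monocytes, had the highest level in every library. In α7nAChR-/- cells Slfn2 stood at 1112 FPKM with nicotine and LPS, 1480 with LPS, 131 with nicotine and 187 with vehicle. In wild-type cells Slfn2 stood at 1126 FPKM with nicotine and LPS, 1586 with LPS, 105 with nicotine and 91.0 with vehicle. All 4 libraries given LPS were far above the other 4, whether or not nicotine had been given first. Slfn2 made up 35.3% to 87.0% of the summed FPKM of the 7 genes.

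Slfn1, the other short member and the first shown to halt the growth of thymocytes, was high with LPS and lowest with nicotine. In α7nAChR-/- cells Slfn1 stood at 48.0 FPKM with nicotine and LPS, 189 with LPS, 1.59 with nicotine and 18.2 with vehicle. In wild-type cells Slfn1 stood at 10.7 FPKM with nicotine and LPS, 173 with LPS, 0.671 with nicotine and 4.54 with vehicle. The nicotine-and-LPS library of wild-type cells thus lay between the vehicle libraries of the genotypes.

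Of the intermediate members, Slfn4 is known as a gene of myeloid cells that falls as monocytes become macrophages, and Slfn3 from work on T cells and on the gut epithelium of rats. In α7nAChR-/- cells Slfn4 stood at 33.7 FPKM with nicotine and LPS, 1402 with LPS, 15.3 with nicotine and 25.4 with vehicle. In wild-type cells Slfn4 stood at 21.6 FPKM with nicotine and LPS, 741 with LPS, 16.2 with nicotine and 10.5 with vehicle. Only the 2 LPS libraries without nicotine were high, and every other library was at 33.7 FPKM or less. Slfn3 in α7nAChR-/- cells stood at 14.0 FPKM with nicotine and LPS, 17.5 with LPS, 6.48 with nicotine and 2.39 with vehicle. In wild-type cells Slfn3 stood at 14.1 FPKM with nicotine and LPS, 23.0 with LPS, 11.3 with nicotine and 2.30 with vehicle. Slfn3 was lowest with vehicle in both genotypes.

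The long members shared 1 order of treatments: LPS highest, then nicotine with LPS, then vehicle, then nicotine alone, in both genotypes. That order was not theirs alone, since the short Slfn1 and Slfn10-ps had it too in both genotypes. In α7nAChR-/- cells Slfn5, the long member best known as an interferon-induced nuclear protein in human cells, stood at 147 FPKM with nicotine and LPS, 708 with LPS, 15.0 with nicotine and 41.0 with vehicle. In wild-type cells Slfn5 stood at 53.9 FPKM with nicotine and LPS, 628 with LPS, 4.20 with nicotine and 18.2 with vehicle. Slfn5 was higher in the α7nAChR-/- library of each pair, and with nicotine and LPS it was far below its LPS level. Slfn8 in α7nAChR-/- cells stood at 152 FPKM with nicotine and LPS, 335 with LPS, 6.12 with nicotine and 20.0 with vehicle. In wild-type cells Slfn8 stood at 63.1 FPKM with nicotine and LPS, 376 with LPS, 4.58 with nicotine and 14.2 with vehicle. Slfn8 followed the shared order in both genotypes. Slfn9 in α7nAChR-/- cells stood at 9.81 FPKM with nicotine and LPS, 64.8 with LPS, 0.318 with nicotine and 1.72 with vehicle. In wild-type cells Slfn9 stood at 5.43 FPKM with nicotine and LPS, 59.2 with LPS, 0.259 with nicotine and 1.10 with vehicle. Slfn9 was the lowest of the long members everywhere, and under 1 FPKM with nicotine alone. Of the family's other symbols, the pseudogene Slfn10-ps stood at 1.01 to 18.9 FPKM, and Slfn14 was listed above 0 in 1 library alone, at 0.0166 FPKM.

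**Figure D2:**
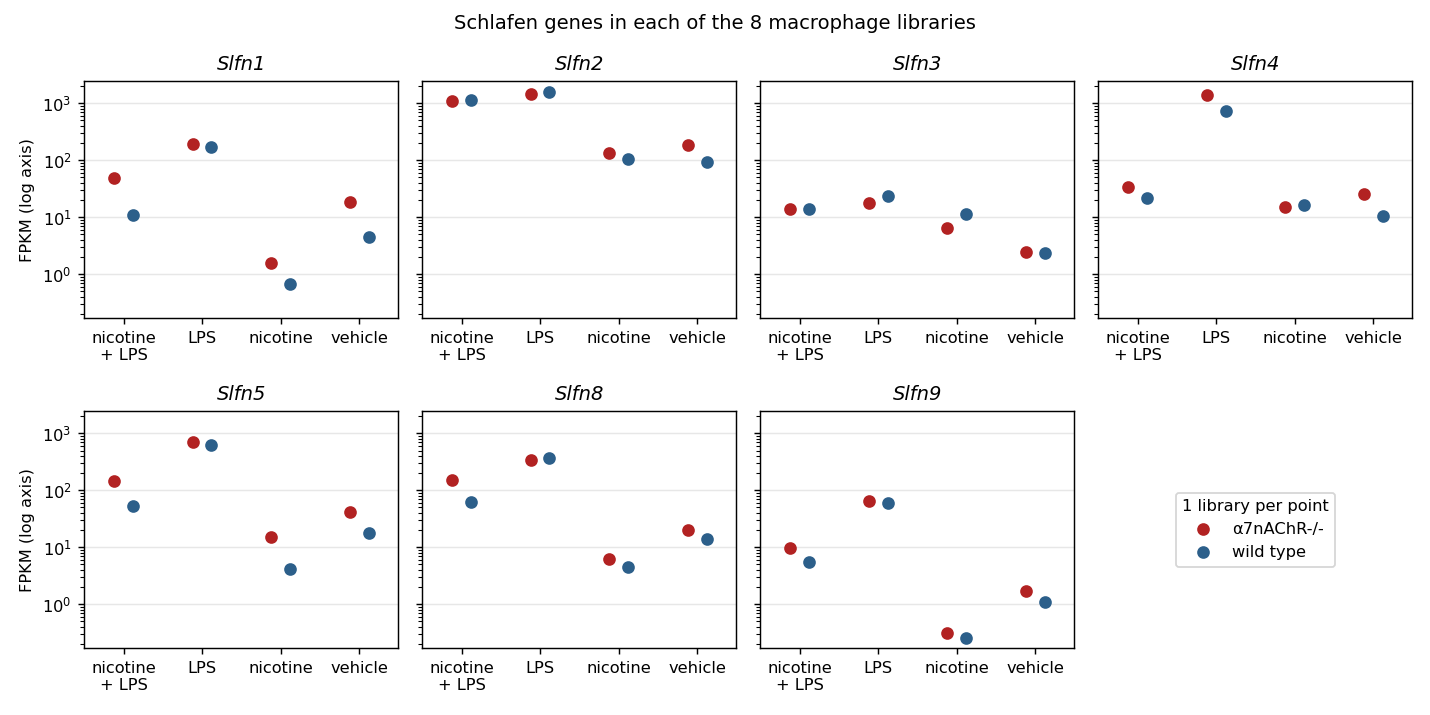
Each panel shows 1 Schlafen gene, with its level in FPKM on a log axis and the 4 treatments on the horizontal axis; each point is 1 library, α7nAChR-/- left and wild type right. Every gene is higher with LPS than with vehicle in both genotypes; with nicotine and LPS, Slfn4 stands at 33.7 FPKM in α7nAChR-/- and 21.6 FPKM in wild-type cells.

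LPS without nicotine, set against vehicle, shows the response of the family to the endotoxin alone. All 7 members rose, and all by more than 4-fold on the log2(FPKM + 1) scale used for testing. The summed FPKM of the 7 genes was 4197 in α7nAChR-/- and 3586 in wild-type cells with LPS, against 296 in α7nAChR-/- and 142 in wild-type cells with vehicle. Slfn4 had the largest rise, and its share of the family's sum was 33.4% in α7nAChR-/- and 20.7% in wild-type cells with LPS, against 8.61% in α7nAChR-/- and 7.39% in wild-type cells with vehicle. Of the 10447 genes tested, whose mean was 1 FPKM or more, 32.7% rose with an adjusted p under 0.05 (limma, Benjamini-Hochberg), and 6.80% rose by at least 4-fold as well. The median change was 4.31 over the 7 members and 0.08 over all genes tested.

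On the log2 scale, Slfn4 rose by 5.87 ± 0.29 (SE; adjusted p = 6.33e-05, limma), which ranked 45 among the rises of all genes. The long members rose by 4.72 ± 0.20 (Slfn9, adjusted p = 6.10e-05), 4.56 ± 0.33 (Slfn5, adjusted p = 0.000149) and 4.31 ± 0.31 (Slfn8, adjusted p = 0.000139). The short members rose by 4.14 ± 0.46 (Slfn1, adjusted p = 0.000564) and 3.54 ± 0.27 (Slfn2, adjusted p = 0.000173). Slfn3 had the smallest rise, 2.65 ± 0.21 (adjusted p = 0.000188). Neighbours in this order differed by less than their errors among the long members and Slfn1, while Slfn4 stood above Slfn9, and Slfn2 above Slfn3, by more than both errors. In matched pairs of libraries, Slfn4 was 55.1-fold higher with LPS in α7nAChR-/- cells and 70.7-fold higher in wild-type cells, and Slfn1 was 10.4-fold higher in α7nAChR-/- cells and 38.0-fold higher in wild-type cells. The summed neutrophil markers moved with LPS too, at 175 FPKM in α7nAChR-/- and 113 in wild-type cells with LPS, against 108 in α7nAChR-/- and 34.2 in wild-type cells with vehicle. Most of that sum was S100a8. Camp, a granule gene of the same list, stood at 11.6 FPKM in α7nAChR-/- and 5.51 in wild-type cells with LPS, against 2.78 in α7nAChR-/- and 0 in wild-type cells with vehicle, while the defining genes S100a9, Ltf, Mpo and Elane stayed under 1 FPKM. The summed monocyte markers were 245 FPKM in α7nAChR-/- and 57.5 in wild-type cells with LPS, against 107 in α7nAChR-/- and 37.1 in wild-type cells with vehicle. Their part in the result was not tested.

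Nicotine given before LPS, set against LPS alone, shows how the agonist changed the induced levels. Of the 7 members 5 fell, and 4 of them (Slfn1, Slfn4, Slfn5 and Slfn9) by at least 4-fold. Among all genes tested 28.6% fell, and 4.03% fell by at least 4-fold. Slfn4 was left with 2.41% of its LPS level in α7nAChR-/- cells and 2.92% in wild-type cells, whereas Slfn2 was left with 75.1% in α7nAChR-/- cells and 71.0% in wild-type cells. The median change was −2.89 over the members and −0.03 over all genes tested.

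Slfn4 changed by −5.19 ± 0.29 on the log2 scale (adjusted p = 0.000145, limma), which ranked 8 among the falls of all 10447 genes. Slfn1 changed by −2.92 ± 0.46 (adjusted p = 0.00246), Slfn9 by −2.92 ± 0.20 (adjusted p = 0.000201), Slfn5 by −2.89 ± 0.33 (adjusted p = 0.000778) and Slfn8 by −1.84 ± 0.31 (adjusted p = 0.00299). The changes of Slfn1, Slfn9 and Slfn5 lay within each other's errors. Slfn2 at −0.45 ± 0.27 (adjusted p = 0.196) and Slfn3 at −0.49 ± 0.21 (adjusted p = 0.0911) did not pass, although both were lower with nicotine in each genotype. Nicotine thus changed the make-up of the family: Slfn4 was 2.22% of its summed FPKM in α7nAChR-/- and 1.67% in wild-type cells with nicotine and LPS, against 33.4% in α7nAChR-/- and 20.7% in wild-type cells with LPS. Slfn2 was 73.3% of the sum in α7nAChR-/- and 87.0% in wild-type cells with nicotine and LPS, against 35.3% in α7nAChR-/- and 44.2% in wild-type cells with LPS. Markers of other cells moved too: the summed monocyte markers stood at 75.3 FPKM in α7nAChR-/- and 17.4 in wild-type cells with nicotine and LPS, against 245 in α7nAChR-/- and 57.5 in wild-type cells with LPS. The summed neutrophil markers stood at 89.1 FPKM in α7nAChR-/- and 46.0 in wild-type cells with nicotine and LPS, against 175 in α7nAChR-/- and 113 in wild-type cells with LPS. The summed mast cell markers went the other way, at 572 FPKM in α7nAChR-/- and 751 in wild-type cells with nicotine and LPS, against 207 in α7nAChR-/- and 281 in wild-type cells with LPS. So did the summed dendritic cell markers, at 22.4 FPKM in α7nAChR-/- and 48.2 in wild-type cells with nicotine and LPS, against 5.11 in α7nAChR-/- and 12.2 in wild-type cells with LPS. Most of that rise was Xcr1. It stood at 18.4 FPKM in α7nAChR-/- and 27.3 in wild-type cells with both, against 1.31 in α7nAChR-/- and 1.14 in wild-type cells with LPS. Zbtb46 of the same list fell, from 3.10 to 2.39 FPKM in α7nAChR-/- and from 3.07 to 1.68 in wild-type cells. Gata6 stood at 0.814 FPKM in α7nAChR-/- and 2.45 in wild-type cells with nicotine and LPS, against 4.84 in α7nAChR-/- and 13.8 in wild-type cells with LPS. Their part in the falls was not tested.

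**Figure D3:**
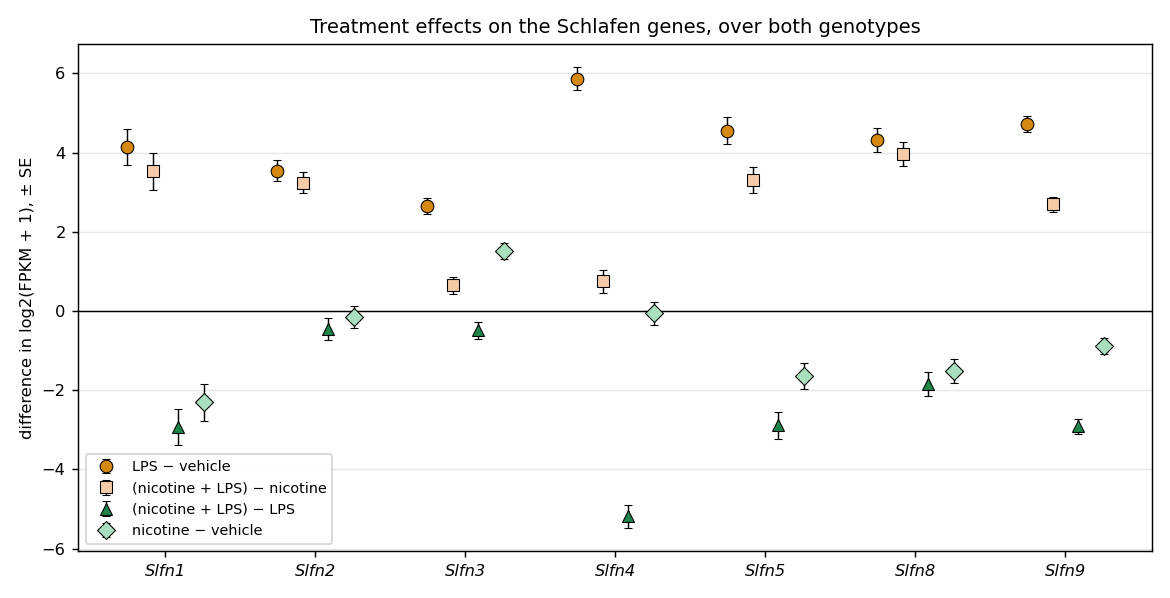
Points are differences in log2(FPKM + 1) estimated over both genotypes, with SE bars, for the 7 Schlafen genes on the horizontal axis and 4 treatment comparisons by symbol. Slfn4 has the largest rise with LPS (5.87) and the largest fall with nicotine before LPS (−5.19), and Slfn3 alone is above 0 for nicotine without LPS (1.52).

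The share of the LPS level that was left after nicotine separated the members further and differed between genotypes for several of them. Slfn1 kept 25.4% in α7nAChR-/- and 6.19% in wild-type cells, Slfn5 kept 20.8% in α7nAChR-/- and 8.57% in wild-type cells, and Slfn8 kept 45.4% in α7nAChR-/- and 16.8% in wild-type cells. Slfn9 kept 15.1% in α7nAChR-/- and 9.19% in wild-type cells, and Slfn3 kept 79.8% in α7nAChR-/- and 61.3% in wild-type cells. Slfn4 alone kept less in α7nAChR-/- cells than in wild-type cells. These are single pairs of libraries with no replicate error. Over a list of 41 interferon-stimulated genes the share left ran from 8.49% to 104% in α7nAChR-/- cells, with a median of 26.8%, and from 2.27% to 101% in wild-type cells, with a median of 11.6%. None of the 41 was left with less than Slfn4 in α7nAChR-/- cells, and 2 were in wild-type cells, Ifit3 (2.77%) and Ifit3b (2.27%).

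**Figure D4:**
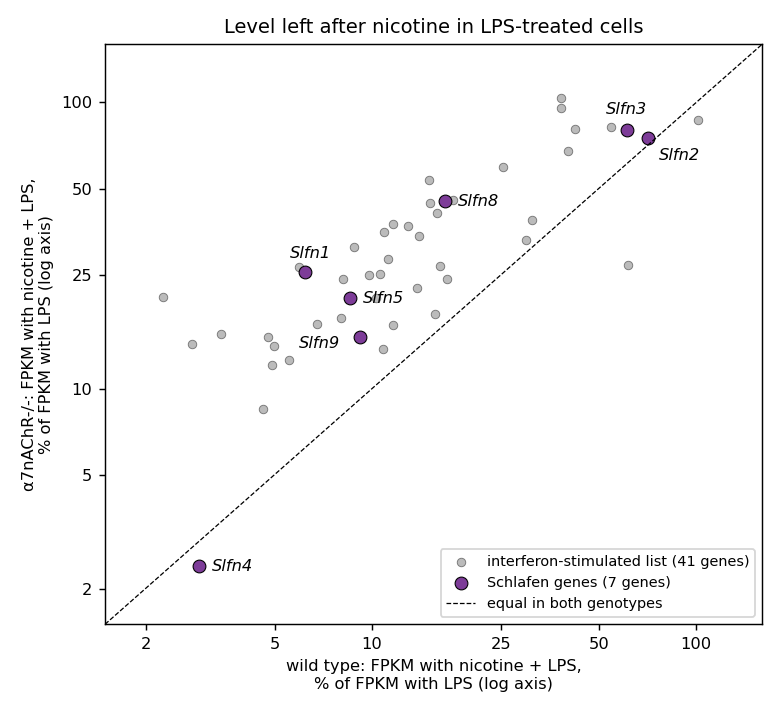
Each point is 1 gene, with the FPKM left after nicotine and LPS as a percentage of that with LPS, in α7nAChR-/- cells on the vertical and wild-type cells on the horizontal log axis; grey points are 41 interferon-stimulated genes and the dashed line marks equal shares. Slfn4 lies at 2.41% in α7nAChR-/- and 2.92% in wild-type cells, while Slfn2 and Slfn3 lie at 61.3% or more on both axes.

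LPS still acted after nicotine, as the libraries given both show against those given nicotine alone. Of the 7 members 5 rose, against 8.29% of all genes tested. Slfn8 rose by 3.97 ± 0.31 on the log2 scale (adjusted p = 0.00108, limma), Slfn1 by 3.52 ± 0.46 (adjusted p = 0.00576), Slfn5 by 3.31 ± 0.33 (adjusted p = 0.00255), Slfn2 by 3.24 ± 0.27 (adjusted p = 0.00147) and Slfn9 by 2.69 ± 0.20 (adjusted p = 0.000929). Both intermediate members missed the threshold, Slfn4 at 0.75 ± 0.29 (adjusted p = 0.131) and Slfn3 at 0.65 ± 0.21 (adjusted p = 0.0879). The call of Slfn1 was lost without the nicotine library of α7nAChR-/- cells (adjusted p = 0.0626) or without their nicotine-and-LPS library (adjusted p = 0.052). The summed mast cell markers stood at 572 FPKM in α7nAChR-/- and 751 in wild-type cells with nicotine and LPS, against 299 in α7nAChR-/- and 392 in wild-type cells with nicotine. The summed neutrophil markers stood at 89.1 FPKM in α7nAChR-/- and 46.0 in wild-type cells with both, against 60.7 in α7nAChR-/- and 22.9 in wild-type cells with nicotine, and the summed dendritic cell markers at 22.4 FPKM in α7nAChR-/- and 48.2 in wild-type cells with both, against 3.50 in α7nAChR-/- and 19.3 in wild-type cells with nicotine. Most of the dendritic cell rise was Xcr1. It stood at 18.4 FPKM in α7nAChR-/- and 27.3 in wild-type cells with both, against 1.97 in α7nAChR-/- and 2.48 in wild-type cells with nicotine. The part of these markers in this response was not tested.

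Whether nicotine changed the LPS response itself was tested as the LPS change with nicotine minus that without. It was smaller with nicotine for 3 members, against 17.3% of all genes tested. The difference was −5.12 ± 0.41 for Slfn4 (adjusted p = 0.00314, limma), −2.03 ± 0.28 for Slfn9 (adjusted p = 0.00632) and −2.01 ± 0.30 for Slfn3 (adjusted p = 0.00736). For Slfn3 the smaller response came with a nicotine level already above vehicle, at 6.48 FPKM in α7nAChR-/- and 11.3 FPKM in wild-type cells. Slfn5 at −1.25 ± 0.47 (adjusted p = 0.0852), Slfn1 at −0.61 ± 0.65 (adjusted p = 0.496), Slfn8 at −0.34 ± 0.43 (adjusted p = 0.573) and Slfn2 at −0.30 ± 0.38 (adjusted p = 0.577) did not pass. Slfn5 passed without the LPS library of α7nAChR-/- cells at −1.86 (adjusted p = 0.00657), with a pseudocount of 5 at −1.56 (adjusted p = 0.0305) and with all pairwise interactions in the model at −1.25 (adjusted p = 0.0325).

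Nicotine alone, set against vehicle, moved the family in both directions. The long members and Slfn1 fell and Slfn3 rose, so that 4 members were lower and 1 was higher, against 26.0% and 30.1% of all genes tested. Slfn1 changed by −2.31 ± 0.46 on the log2 scale (adjusted p = 0.00619, limma), Slfn5 by −1.64 ± 0.33 (adjusted p = 0.00652), Slfn8 by −1.50 ± 0.31 (adjusted p = 0.00664) and Slfn9 by −0.89 ± 0.20 (adjusted p = 0.00938). Slfn3 rose by 1.52 ± 0.21 (adjusted p = 0.00166), by 2.71-fold in FPKM in α7nAChR-/- cells and 4.91-fold in wild-type cells. Slfn2 at −0.15 ± 0.27 (adjusted p = 0.652) and Slfn4 at −0.06 ± 0.29 (adjusted p = 0.869) did not pass. Without the nicotine library of α7nAChR-/- cells, Slfn1 (adjusted p = 0.0547), Slfn8 (adjusted p = 0.0517) and Slfn9 (adjusted p = 0.0737) lost their calls, and only Slfn3 and Slfn5 kept theirs. Slfn9 was also lost without the vehicle library of α7nAChR-/- cells (adjusted p = 0.0588) or of wild-type cells (adjusted p = 0.0518), and Slfn5 without the nicotine library of wild-type cells (adjusted p = 0.0573). A pseudocount of 5 in place of 1 ended the call of Slfn9 at −0.28 (adjusted p = 0.131), and quantile normalization brought Slfn2 past the threshold at −0.65 (adjusted p = 0.0495). The summed monocyte markers stood at 48.6 FPKM in α7nAChR-/- and 15.6 in wild-type cells with nicotine, against 107 in α7nAChR-/- and 37.1 in wild-type cells with vehicle. The summed neutrophil markers stood at 60.7 FPKM in α7nAChR-/- and 22.9 in wild-type cells with nicotine, against 108 in α7nAChR-/- and 34.2 in wild-type cells with vehicle, and the summed mast cell markers at 299 FPKM in α7nAChR-/- and 392 in wild-type cells with nicotine, against 157 in α7nAChR-/- and 207 in wild-type cells with vehicle. Their part in the result was not tested.

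Averaged over both nicotine states, LPS raised all 7 members (30.0% of all genes). With matched pairs of libraries as a block, 5 of these 7 calls held, and those of Slfn3 (adjusted p = 0.0629, limma) and Slfn4 (adjusted p = 0.0891) were lost. Averaged over both LPS states, nicotine lowered 5 members (33.6%) and raised Slfn3 (0.52 ± 0.15, adjusted p = 0.0205), with 32.7% of all genes higher. In an additive model of LPS, nicotine and genotype the averaged calls of Slfn4 (adjusted p = 0.0503 for LPS and 0.0697 for nicotine) and the nicotine call of Slfn3 (adjusted p = 0.341) were lost, and with the block so were the nicotine calls of Slfn4 (adjusted p = 0.107) and Slfn3 (adjusted p = 0.399). The nicotine call of Slfn3 was lost as well with a pseudocount of 5 (adjusted p = 0.0828). It was also lost without the vehicle library (adjusted p = 0.0849) or the nicotine library (adjusted p = 0.0683) of wild-type cells, and without the LPS library (adjusted p = 0.0516) or the nicotine-and-LPS library (adjusted p = 0.0876) of α7nAChR-/- cells. Slfn2 passed for nicotine without the vehicle library of wild-type cells at −0.54 (adjusted p = 0.0143) and with quantile normalization at −0.52 (adjusted p = 0.0285).

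The genotype comparison, α7nAChR-/- over wild type across the 4 treatments, gave 1 call. Slfn5 was higher in α7nAChR-/- cells by 1.09 ± 0.23 on the log2 scale (adjusted p = 0.0417, limma), against 4.76% of all genes tested. Its FPKM was 2.74-fold higher in the α7nAChR-/- library with nicotine and LPS, 1.13-fold with LPS, 3.57-fold with nicotine and 2.26-fold with vehicle. This call was lost in 6 of the 8 fits that left out 1 library (adjusted p = 0.127 to 0.172), when all genes above 0 in any library were tested (adjusted p = 0.111), with a pseudocount of 5 (adjusted p = 0.0535), with quantile normalization (adjusted p = 0.0514) and in the additive model (adjusted p = 0.253). Slfn1 at 1.16 ± 0.33 (adjusted p = 0.0843) and Slfn4 at 0.66 ± 0.21 (adjusted p = 0.103) did not pass, and Slfn1 passed without the LPS library of α7nAChR-/- cells (adjusted p = 0.0289) or of wild-type cells (adjusted p = 0.029). Slfn1 was 4.49-fold higher in α7nAChR-/- cells with nicotine and LPS, 1.09-fold with LPS, 2.37-fold with nicotine and 4.00-fold with vehicle. The other 4 members lay between −0.27 (Slfn3, adjusted p = 0.303) and 0.48 (Slfn8, adjusted p = 0.220).

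Markers of other cells differed with genotype as well. The summed monocyte markers were 75.3 FPKM in α7nAChR-/- and 17.4 in wild-type cells with nicotine and LPS, and 48.6 FPKM in α7nAChR-/- and 15.6 in wild-type cells with nicotine. Ly6c2, the monocyte gene behind most of that sum in α7nAChR-/- cells, stood at 33.9 to 184 FPKM there and at 1.97 to 13.4 FPKM in wild-type cells. Cd209a, a gene of monocyte-derived dendritic cells, was at 0 to 0.156 FPKM in α7nAChR-/- cells and at 7.86 to 19.8 FPKM in wild-type cells. Other dendritic cell markers did not follow it. Flt3 went the other way, at 0.437 to 1.39 FPKM in α7nAChR-/- and 0.114 to 0.223 in wild-type cells. Xcr1 and Zbtb46 were higher in α7nAChR-/- cells in some pairs and lower in others. Their part in the genotype result was not tested.

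Neither the LPS change nor the nicotine change differed between genotypes for any of the 10447 genes after adjustment (0.0% called; limma). At an unadjusted p under 0.05, 840 genes passed for LPS and 451 for nicotine, with 1 member each. The LPS change in α7nAChR-/- cells minus that in wild-type cells was −0.74 ± 0.27 for Slfn2 (adjusted p = 0.605), and the same difference in the nicotine change was −0.79 ± 0.29 for Slfn4 (adjusted p = 0.945). Only 2 residual degrees of freedom were left for these tests. In simulated data with a 4-fold difference between genotypes, 44% of changed genes were recovered for LPS and 0% for nicotine. At 2-fold 0% were recovered for either, so the lack of calls for nicotine cannot tell whether its change differed. The response of the 7 members to nicotine was therefore not shown to depend on genotype, nor to be independent of it.

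The interferon pathway around the family was read from lists of named genes. Of 41 interferon-stimulated genes all 41 rose with LPS (median 4.73) and 37 fell with nicotine before LPS (median −2.44), with none higher. Rsad2, which encodes the antiviral enzyme viperin, rose by 9.66 ± 0.33 with LPS and changed by −2.57 ± 0.33 with nicotine (adjusted p = 0.00121, limma). Mx1, an antiviral GTPase, changed by −3.74 ± 0.44 with nicotine (adjusted p = 0.000864), Ifit3, which binds other Ifit proteins, by −3.95 ± 0.62 (adjusted p = 0.00242), and Isg20, an exonuclease, by −3.91 ± 0.37 (adjusted p = 0.000445). Isg15, a ubiquitin-like protein, did not pass: it stood at 4043 FPKM in α7nAChR-/- and 3488 in wild-type cells with nicotine and LPS, against 4675 in α7nAChR-/- and 3439 in wild-type cells with LPS (−0.09 ± 0.68, adjusted p = 0.915). Parp14 (−0.58 ± 0.23, adjusted p = 0.0660) and Dtx3l (−0.66 ± 0.30, adjusted p = 0.109), partners in ADP-ribosylation, also missed the threshold, and the smallest rises with LPS were those of Ifitm3 (2.71 ± 0.36) and Dtx3l (3.04 ± 0.30). Ifit1 rose by 8.45 ± 0.61 and Oasl1 by 8.29 ± 0.38. In α7nAChR-/- cells 22 of the 41 were higher than in wild-type cells (median 1.27), against 4.76% of all genes tested. With nicotine alone 15 of 41 were lower and 1 was higher, against 26.0% and 30.1% of all genes tested.

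Among 20 genes of interferon and TLR4 signalling, 12 rose and 2 fell with LPS, and 3 rose and 14 fell with nicotine before LPS (median −1.54). Of all genes tested, 32.7% rose and 26.4% fell with LPS, and 26.9% rose and 28.6% fell with nicotine before LPS. The feedback inhibitors Socs3 and Socs1 had the largest rises, 5.60 ± 0.29 and 5.46 ± 0.49, and the largest falls with nicotine, −3.64 ± 0.29 (Socs3) and −2.83 ± 0.49 (Socs1). Irf9, a subunit of the factor that binds the ISRE, did not pass with nicotine (0.24 ± 0.20, adjusted p = 0.339, limma). Ifnb1, the gene of interferon-β, stood at 134 FPKM in α7nAChR-/- and 20.6 in wild-type cells with nicotine and LPS, against 165 in α7nAChR-/- and 6.21 in wild-type cells with LPS, and was listed at 0 without LPS. With nicotine it was lower in α7nAChR-/- cells and higher in wild-type cells, and the change did not pass (0.64 ± 1.07, adjusted p = 0.634). The kinase Jak1 rose with nicotine under LPS by 0.40 ± 0.12 (adjusted p = 0.0283). Its partner Tyk2 (−0.11 ± 0.15, adjusted p = 0.563) and Irf3 (−0.19 ± 0.13, adjusted p = 0.238) had the smallest changes with LPS. Both fell with nicotine under LPS, Tyk2 by 1.66 ± 0.15 (adjusted p = 0.000389) and Irf3 by 0.80 ± 0.13 (adjusted p = 0.00252).

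Because Schlafen genes are linked to quiescence, 25 cell cycle genes were read too, of which 23 were tested. With LPS 8 rose and 5 fell, and with nicotine before LPS 7 rose and 8 fell, against 32.7% and 26.4% of all genes tested with LPS and 26.9% and 28.6% with nicotine. Ccnd2, a D-type cyclin, rose with LPS by 6.06 ± 0.27 and changed by −3.72 ± 0.27 with nicotine (adjusted p = 0.000231, limma). Cdkn1a, the inhibitor p21, rose with LPS by 4.03 ± 0.25 and Mki67, a proliferation marker, by 3.01 ± 0.42. Mcm4, of the replicative helicase, rose with nicotine under LPS by 1.92 ± 0.17 (adjusted p = 0.000338), and Ccnd3 changed by −1.61 ± 0.35 (adjusted p = 0.00824). Cdk1 (−0.04 ± 0.26) and Top2a (0.07 ± 0.24) had the smallest changes with LPS, and Ccna2 (0.15 ± 0.22) and Cdk4 (0.16 ± 0.17) the smallest with nicotine under LPS, none past the threshold.

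The 7 members did not share 1 profile. Pearson's r of log2(FPKM + 1) over the 8 libraries, which share treatments and are not independent, ran from 0.522 for Slfn1 with Slfn3 to 0.985 for Slfn1 with Slfn5, with a median of 0.888 over 21 pairs. Slfn3 was the least like the rest. Likeness was taken over 2303 genes outside the family that averaged 5 FPKM or more and spanned at least 2 on the log2 scale, without predicted (Gm), Rik and small RNA genes. Those most like Slfn1 were Gbp7 (r = 0.998), Tgtp2 (0.995) and Ddx58 (0.994), and those most like Slfn5 were Parp12 (0.996), Ddx58 (0.996) and Slc7a2 (0.994). Slfn8 was nearest to Ifi203 (0.995), Eif2ak2 (0.994) and Sp110 (0.993), and Slfn9 to Aim1 (0.995), Ptch1 (0.995) and Mndal (0.995). Ddx58, which encodes the RNA sensor RIG-I, and Eif2ak2, the kinase PKR, are in the interferon-stimulated list. Slfn2 was nearest to Sp140 (0.995), Oasl1 (0.995) and Ifit1 (0.988).

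The intermediate members had other neighbours in profile. Slfn4 was nearest to U90926 (r = 0.992), Nos2 (0.992) and Ankib1 (0.990). Nos2, the inducible nitric oxide synthase, stood at 3.61 FPKM in α7nAChR-/- and 1.56 in wild-type cells with nicotine and LPS, against 1189 in α7nAChR-/- and 164 in wild-type cells with LPS. Slfn3 was nearest to Cdkn1a (0.992), Rap1b (0.983) and Sbds (0.983). Cdkn1a stood at 412 FPKM in α7nAChR-/- and 419 in wild-type cells with nicotine and LPS, 740 in α7nAChR-/- and 735 in wild-type cells with LPS, 133 in α7nAChR-/- and 244 in wild-type cells with nicotine, and 47.3 in α7nAChR-/- and 41.1 in wild-type cells with vehicle. Like Slfn3, it was lowest with vehicle in both genotypes.

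None of the tested genes beside the cluster rose with LPS as much as any member. Within the cluster Slfn10-ps, which shares sequence with Slfn8 and Slfn9, rose by 2.65 ± 0.23 with LPS and changed by −2.04 ± 0.23 with nicotine before LPS (adjusted p = 0.000771, limma). The long non-coding RNA AI662270, at 60.3 to 173 FPKM, rose with LPS by 1.05 ± 0.17 and did not pass with nicotine (0.18 ± 0.17, adjusted p = 0.415). Of the 8 nearest genes of the table before the cluster 6 were tested: 2 rose and 2 fell with LPS, and 1 rose and 3 fell with nicotine before LPS. Among all genes tested the shares were 32.7% and 26.4% with LPS and 26.9% and 28.6% with nicotine before LPS. Rffl, a ubiquitin ligase gene, rose with LPS (1.98 ± 0.21) and fell with nicotine before LPS (−2.18 ± 0.21), and so did Nle1 (1.24 ± 0.26 and −1.13 ± 0.26). With LPS after nicotine neither passed (−0.03 ± 0.21 for Rffl, adjusted p = 0.948, and −0.04 ± 0.26 for Nle1, adjusted p = 0.938, limma). Gm11423 (−1.86 ± 0.30) and Rad51d (−0.52 ± 0.17) fell with LPS, while Lig3 (−0.77 ± 0.21) fell and Zfp830 (0.59 ± 0.13) rose with nicotine. After the cluster, Ap2b1 rose with LPS (1.16 ± 0.14) and did not pass with nicotine (−0.39 ± 0.14, adjusted p = 0.0524). Rffl overlaps the end of Lig3, and without strand their reads there cannot be told apart. The bordering genes Unc45b and AA465934 stayed under 1 FPKM.

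**Figure D5:**
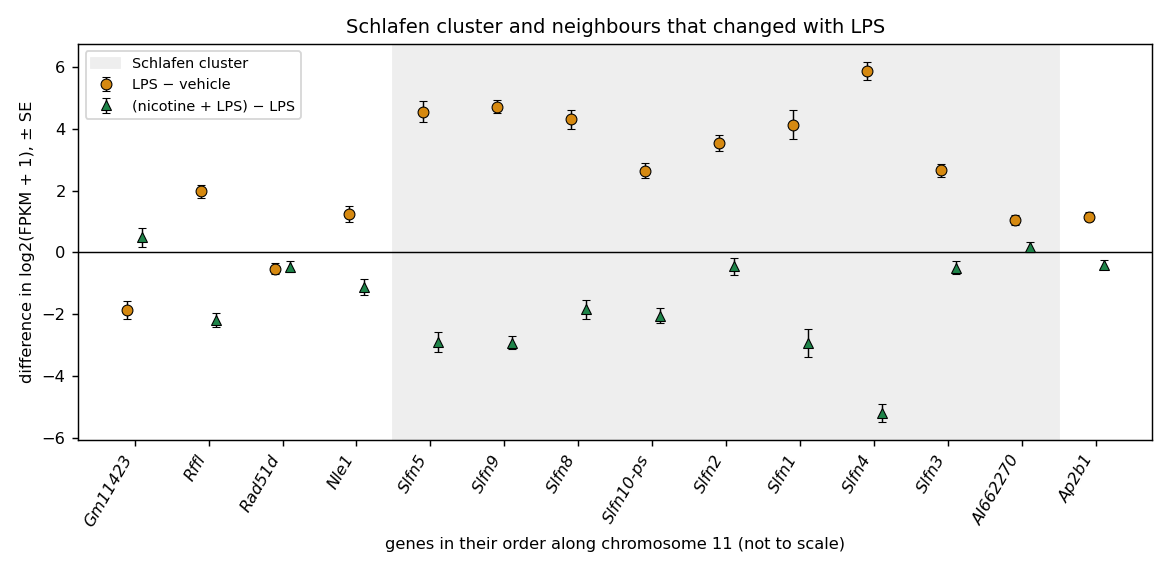
Tested genes of the cluster (grey band) and those among the 8 table genes on each side that passed the test for LPS are shown in their order on chromosome 11, with the difference in log2(FPKM + 1) and its SE for LPS against vehicle and for nicotine with LPS against LPS. Rises with LPS inside the band reach 5.87 (Slfn4), and the largest outside it is 1.98 (Rffl).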

How the data were processed

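The authors deposited 1 table with an FPKM value per gene and library; HISAT2, Cufflinks, Cuffdiff, CASAVA 1.8 and the build mm10 are listed, with no role, per the submitters' processing notes. How libraries were scaled, and their depth, is not given in the sources used here. Per the labels' protocols, poly(A) RNA went through the TruSeq RNA Sample Prep Kit v2. Of 24341 lines, 2 repeated symbols were merged by keeping the highest mean. Between 2 libraries, 26.8% to 40.8% of low genes stood at the commonest ratio, within 0.2%. That share cannot settle whether low values are whole multiples of 1 read. FPKM is not a count, so no count test was used.

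Differences of log2(FPKM + 1) were fitted with limma 3.58.1 in R 4.3.3 (genotype plus 4 treatments, 3 residual degrees of freedom, 2 with a genotype interaction) over the 10447 genes averaging 1 FPKM or more, with Benjamini-Hochberg adjustment at 0.05, and were checked on simulated data. A pseudocount of 1 understates changes of low genes such as Slfn9, and can enlarge a difference between 2 changes. Called means past 0.05. Pathway genes were named by rule: the 3 largest and 2 smallest changes of a list for LPS and for nicotine under LPS; cluster neighbours if called or bordering; and the 3 genes most correlated with a member. Of the genes so named, 2 are not reported here. Genes and lists were chosen with earlier results of these data known. The 4-fold counts, the shares left after nicotine, Ifit3b, Cd209a, Flt3, Ly6c2, Camp, Gata6, Timd4, Xcr1 and Zbtb46 were picked after values were seen. Sequences are from RefSeq (GRCm38.p6) and gene models from GENCODE M21. Alternatives were another pseudocount, filter, scaling, trend or model, and leaving out each library.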

Additional observations from a re-analysis of the deposited data

Results flagged for a closer look

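Nicotine without LPS moved Slfn2 and Slfn4 in opposite directions in the genotypes. The change of Slfn2 in log2(FPKM + 1), nicotine minus vehicle, was −0.51 in α7nAChR-/- cells and 0.20 in wild-type cells. That of Slfn4 was −0.70 in α7nAChR-/- cells and 0.58 in wild-type cells. Each value is 1 pair of libraries, and the difference within the libraries without LPS was not tested. Pooled over both LPS states, the difference in the nicotine change between genotypes gave an adjusted p of 0.954 for Slfn2 and 0.945 for Slfn4 (limma). That test recovered 0% of genes given a 4-fold difference in simulated data, so it cannot decide the point. In vehicle libraries Slfn2 was 2.05-fold and Slfn4 2.43-fold higher in α7nAChR-/- cells, and both nicotine changes are set against those libraries.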

How the results depend on the processing

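Of 970 member values under the alternatives, 921 kept their direction and side of the threshold, 31 lost a call, 8 gained one, and 10 turned round, none of which had been called. All 7 calls for LPS without nicotine and the 5 calls for nicotine under LPS held in every alternative run. For LPS by nicotine, Slfn1 turned to 0.026 with a pseudocount of 0.1, and Slfn2 and Slfn8 to 0.26 and 0.19 with quantile normalization. Leaving out 1 library gave ranges of −1.30 to 0.070 (Slfn1), −0.78 to 0.18 (Slfn2) and −0.86 to 0.18 (Slfn8) for that difference, and of −0.63 to 0.33 (Slfn2) and −0.56 to 0.44 (Slfn4) for nicotine without LPS. Members called for nicotine without LPS ranged from 2 to 5 when 1 library was left out. For the genotype they ranged from 0 to 2, and were 0 with a pseudocount of 5, with no filter, with quantile normalization and in the additive model. Slfn9 lost its call for nicotine without LPS with a pseudocount of 5 (adjusted p = 0.131). The averaged effects of Slfn4 lost their calls in the additive model (LPS 0.0503, nicotine 0.0697) and with matched pairs as a block (LPS 0.0891, nicotine 0.107), and so did those of Slfn3 with the block (LPS 0.0629, nicotine 0.399; all adjusted p, limma). The averaged nicotine call of Slfn3 was also lost in the additive model, with a pseudocount of 5 and in 4 of the 8 fits that left out 1 library. Quantile normalization moved the share of higher calls among all genes for LPS without nicotine to 45.2%, against 55.4% as deposited, and the median of all genes to −0.07, against 0.08; relative to that shift the 7 members still rose. The cause of these shifts was not tested. These pairs are libraries alike in all but the factor tested; the labels give no replicate numbers. The unknown read depth limits the reading of Slfn9 and of other values near or under 1 FPKM.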
